A study of Homo sapiens with 48 samples.

Results

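Interferon-stimulated genes are genes whose transcription rises when a cell senses interferon, and 44 of them were taken by name out of the 58870 genes counted in uveal melanoma cell lines. The genes were listed by function, with earlier results of these data known, and the rule itself uses no measured value. All 44 were present in every count file, but fewer had enough reads to be tested: 25 in the 92-1 experiment with FHT-1015, 31 in MEL202, 37 in MP41 and 31 in the 92-1 experiment with IDE196. The genes never tested in any of these were IFITM1, RSAD2, GBP1, IFI44L and XAF1.

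The study treated 92-1, MEL202 and MP41, 3 established lines from melanoma of the eye that are labelled as wild type, with the vehicle DMSO or with FHT-1015, which inhibits both SMARCA4 and SMARCA2, the ATPase motors of the BAF chromatin-remodelling complex, and collected RNA after 4 h or 24 h. A further experiment treated 92-1 cells with the protein kinase C inhibitor IDE196 for 4 h or 24 h and had its own DMSO libraries, here called the second 92-1 DMSO set. Each of the 16 groups had 3 libraries, labelled as biological replicates, and polyA RNA was sequenced. Doses are not given in the labels, nor is what separated the replicates or whether the lines were grown and sequenced together, so p-values measure the spread between these libraries.

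Between 11394088 and 32317711 reads per library fell on genes. The cells carried the melanocyte lineage markers (8 genes, summed level 2743 to 22820 CPM, reads scaled to library size, over the 48 libraries), while the sums stayed at or under 6.08 CPM for 7 leukocyte markers, 1.91 CPM for 3 markers of plasmacytoid dendritic cells and 1.73 CPM for 3 endothelial markers. Fibroblast markers (4 genes) summed to between 1.10 and 38.0 CPM, and epithelial markers (4 genes) to at most 13.7 CPM. A MEL202 library (FHT-1015, 4 h, replicate 2) had reads on the fewest genes, 17592, and stood apart for several interferon-stimulated genes, with 0 CPM of DDX58 and IFIH1 and 0.0429 CPM of SAMD9. In MP41 the DMSO libraries at 24 h were spread widely: EIF2AK2 was at 44.4, 26.2 and 85.9 CPM and SAMD9 at 8.17, 1.5 and 24.2 CPM in replicates 1 to 3. Calls that were lost without these libraries are given below.

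Type I and type III interferons bind receptors at the cell surface and activate JAK kinases, which phosphorylate STAT proteins. Phosphorylated STAT2 and IRF9 are parts of the complex ISGF3, which binds a DNA motif called the interferon-stimulated response element (ISRE), while interferon gamma acts mainly at a motif called GAS. The induced proteins sense viral RNA, stop translation, degrade RNA, block entry, replication or release of viruses, or attach the ubiquitin-like protein ISG15 to other proteins, and many tumour lines express some of them at a low level without added interferon.

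The 8 interferon genes counted were close to silent. Reads on IFNA1, IFNB1, IFNE, IFNG, IFNK, IFNL1, IFNL2 and IFNL3 came to 77 over all 48 libraries, of which 44 were on IFNE and 14 on IFNK. IFNB1 and IFNG had 2 reads each. Counts above 3 reads in a library were found 3 times for IFNE and 2 times for IFNK.

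The ISRE is printed first because it is what many of these promoters share, although the list was not chosen on sequence. RefSeq promoter windows of GRCh38.p14, running from 250 bases before to 50 bases after the start, were available for 34 of the 44 genes. The ISRE core, searched on both strands as TTTC, any 2 bases and TTTC again, was in 21 of the 34 (61.8%) and in 996 of all 27305 windows (3.65%). The GAS palindrome TTCNNNGAA was in 8 of the 34 (23.5%) and in 2152 of all windows (7.88%). The stretches below belong to genes that carry the results, with the ISRE match in capitals, or for IFI35 the GAS match.
DTX3L, chr3:122564278-122564347, plus strand: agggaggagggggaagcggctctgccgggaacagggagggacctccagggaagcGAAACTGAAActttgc
IFIT3, chr10:89327827-89327896, plus strand: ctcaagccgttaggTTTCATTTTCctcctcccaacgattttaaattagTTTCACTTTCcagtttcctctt
OAS3, chr12:112938414-112938473, plus strand: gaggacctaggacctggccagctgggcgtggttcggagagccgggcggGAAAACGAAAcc
ISG20, chr15:88638916-88638975, plus strand: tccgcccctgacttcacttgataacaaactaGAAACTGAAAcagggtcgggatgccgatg
IFIT1, chr10:89392493-89392552, plus strand: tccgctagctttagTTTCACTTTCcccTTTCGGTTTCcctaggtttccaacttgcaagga
SAMD9, chr7:93118085-93118144, minus strand: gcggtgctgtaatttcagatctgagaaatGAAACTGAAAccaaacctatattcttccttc
IFI35, chr17:43006724-43006783, plus strand: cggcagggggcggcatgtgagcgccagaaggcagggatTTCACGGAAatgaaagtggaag
Over the whole window DTX3L, ISG20 and SAMD9 carried 1 ISRE match each and IFIT3, IFIT1 and OAS3 carried 2 each, of which the OAS3 stretch above shows 1. STAT2, IRF1, IRF9 and IFI35 were among the 13 matched genes with no ISRE core in the window. These matches are a description of the letters, and the files hold no binding data.

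The first question was how much of each gene the lines contained without drug. In DMSO, over both times, 20 of the 44 genes averaged at least 1 CPM in 92-1, 28 in MEL202 and 30 in MP41, and 7, 8 and 13 averaged at least 10 CPM. At the other end, 10 genes in 92-1, 5 in MEL202 and 3 in MP41 had 3 reads or fewer in all 6 DMSO libraries. Per kb of exon, so that genes can be compared with each other, the 44 genes summed to 125.4 CPM per kb in 92-1, 111.2 in MEL202 and 258.5 in MP41.

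EIF2AK2, the kinase PKR that stops translation when it binds double-stranded RNA, was the most abundant in CPM in 92-1 (76.88 ± 8.19, SD, n = 6) and MEL202 (74.3 CPM). In MP41 IFITM3, a membrane protein that blocks fusion of viruses in endosomes, led with 118.1 ± 13.3 CPM (SD, n = 6), followed by IFI35 at 88.1 ± 31.0 CPM. The genes a cell would need for a full response were unevenly present: STAT2 averaged 34.7 CPM in 92-1, while RSAD2 (viperin), XAF1 and OAS2 had 0 or 1 read in each library of its first DMSO set. In the second 92-1 DMSO set these 3 averaged 0.047, 0.088 and 0.40 CPM.

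MP41 held more of these genes than 92-1. Of 38 genes tested, 27 were called higher and 1 lower in MP41 (edgeR's quasi-likelihood test, adjusted p under 0.05 over all genes), where 65.0% of all genes tested were called, 32.1% higher and 33.0% lower. OAS3, which makes the 2'-5' oligoadenylates that switch on RNase L, averaged 24.0 CPM in MP41 against 3.00 in 92-1, a log2 difference of 3.01 ± 0.20 (SE). IFI35, a protein induced by both interferon types, averaged 88.1 against 6.5 CPM (log2 difference 3.75 ± 0.15), and the 3'-5' exonuclease ISG20 averaged 8.24 against 0.27 CPM (4.87 ± 0.25). The gene called lower was IFITM2, with a log2 difference of -0.64.

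Sensors and effectors were among the 27. IFIH1 (the RNA sensor MDA5) averaged 6.11 CPM in MP41 and 0.44 in 92-1, DHX58 (LGP2) 6.2 and 0.44, UBE2L6, the E2 enzyme for ISG15, 6.15 and 0.27, and SAMD9, an antiviral protein, 15.4 and 1.14 CPM. OAS1 averaged 2.83 CPM in MP41 and had 0 or 1 read in each library of the first 92-1 DMSO set, so no fold is given. In the second 92-1 DMSO set it averaged 0.24 CPM.

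MEL202 differed from 92-1 for fewer genes. Against the same 92-1 libraries, 15 of 38 genes were called higher and 4 lower, where 52.9% of all genes were called, 27.8% higher and 25.1% lower. SAMD9L averaged 7.90 CPM in MEL202 against 0.20 in 92-1 and 3.08 in MP41, and MX2, the GTPase that blocks nuclear entry of HIV, averaged 3.51 CPM against 0.02 and 0.10. IFITM3 averaged 18.4 CPM in MEL202 against 43.3 in 92-1, a log2 difference of -1.21 ± 0.15 (SE). Between MP41 and MEL202, 26 genes were higher in MP41 and 6 lower (56.0% of all genes called, 27.3% higher and 28.8% lower), the 6 being MX2, IFI44, SAMD9L, IFIT5, IFIT3 and IFITM2. Line and experiment cannot be told apart in these counts, and in bulk RNA fewer cells with a transcript and less transcript per cell cannot be told apart either.

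**Figure D1:**
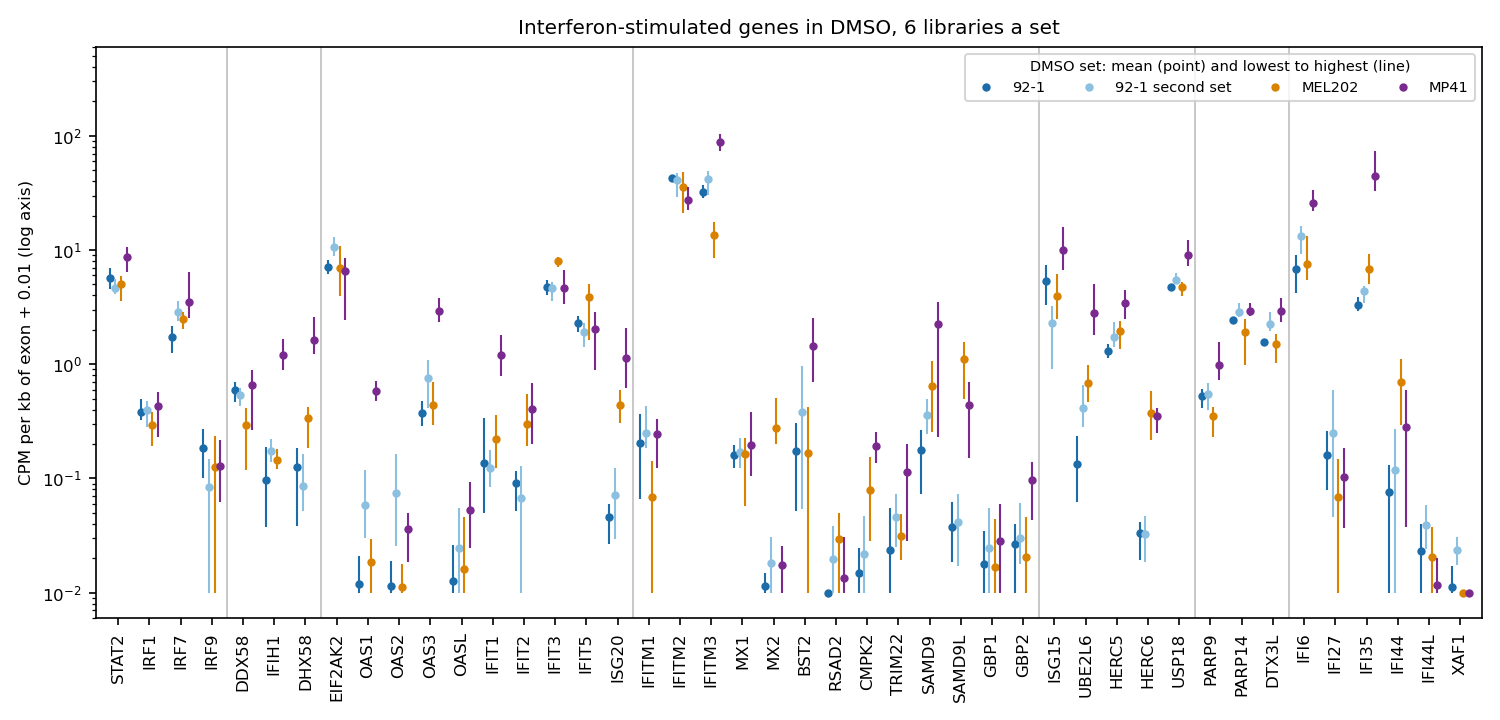
Level of each of the 44 genes in DMSO, in CPM per kb of exon plus 0.01 on a log axis, for the 3 lines and the second 92-1 set, 6 libraries each. Points are means and lines run from the lowest to the highest library; MP41 lies above both other lines for OAS3, IFI35, IFIH1 and DHX58, and MEL202 lies highest for MX2 and SAMD9L.

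The second 92-1 DMSO set gives a measure of how far 1 line moved between experiments. It differed from the first set for 16 of 31 genes, 12 higher and 4 lower, where 60.4% of all genes were called, 29.3% higher and 31.1% lower. EIF2AK2 was higher by 0.54, IFI6 by 0.94 and OAS3 by 0.98 on the log2 scale, while ISG15 had a log2 difference of -1.26. With the second set in place of the first, MP41 differed from 92-1 for 27 genes (24 higher, 3 lower) and MEL202 for 25 (14 higher, 11 lower), of 39 tested in each, where 61.0% of all genes were called for MP41 (31.5% higher, 29.5% lower) and 52.3% for MEL202 (27.7% higher, 24.6% lower). Time in DMSO was also compared. By edgeR's test 0 members changed between 4 h and 24 h in the first 92-1 set (0.344% of all genes called, 0.0638% higher and 0.281% lower), in MEL202 (0.00%) or in the second 92-1 set (0.266%, 0.162% higher and 0.104% lower). At an unadjusted p under 0.05 the counts were 1, 0 and 2, and DESeq2 and limma-voom also called 0 in each. In MP41 1 member changed, ISG20, higher at 24 h by 1.01 ± 0.24 (adjusted p = 0.046), where 2.59% of all genes were called, 1.60% higher and 0.997% lower. For MP41 DESeq2 called 3, limma-voom 22, and the summed stranded columns 0. Without the replicate 3 DMSO library at 24 h that MP41 count was 15 (9 higher, 6 lower).

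FHT-1015 was then compared with DMSO in each line and time. In 92-1 at 4 h, 9 of the 25 tested genes fell and 0 rose, where 29.5% of all genes were called, 16.7% lower and 12.9% higher. At 24 h in 92-1, 9 fell and 4 rose (60.6% of all genes called, 31.4% lower and 29.2% higher). In MEL202 0 changed at 4 h (0.679% of all genes called, 3 members at an unadjusted p under 0.05), and 5 fell and 0 rose at 24 h (18.8% of all genes called, 10.1% lower and 8.69% higher). In MP41 0 changed at 4 h (0.225% of all genes called, 0.0708% higher and 0.154% lower, with 4 members at an unadjusted p under 0.05), and 10 fell and 5 rose at 24 h (36.1%, 18.7% lower and 17.4% higher). Leaving out the MP41 DMSO library of replicate 2 or of replicate 3 at 24 h left 9 lower and 7 or 6 higher, and 1 lower at 4 h. Dropping the sparse MEL202 library (FHT-1015, 4 h, replicate 2) left 0 at 4 h and, at 24 h, 5 lower and 1 higher. Leaving out a MEL202 library of 24 h cut the 5 falls to 2 (treated replicate 1 or 3), 3 (treated replicate 2, DMSO replicate 2 or 3) or 4 (DMSO replicate 1). With all 48 libraries in 1 fit, 4 members were called in 92-1 at 4 h. At 4 h DESeq2 and limma-voom each called 0 members in MEL202, and 1 and 4 in MP41, while at 24 h limma-voom called 15 in MEL202 (7 higher, 8 lower) and 23 in MP41 (11 higher, 12 lower). The median log2 fold change over tested members was -0.39 in 92-1 at 4 h and -0.20 at 24 h, -0.26 and -0.04 in MEL202, and -0.13 and -0.03 in MP41, while the median over all genes tested was between -0.02 and 0.07 in these 6 comparisons.

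FHT-1015 also lowered melanocyte markers. In 92-1 at 4 h 4 of 7 tested were called lower, with a marker sum of 15230 to 17390 CPM against 20270 to 21770 in DMSO, and 1 of 8 was called lower at 4 h in each of MEL202 and MP41. At 24 h all 7 tested in 92-1 and all 8 in MEL202 and MP41 fell, and the marker sum was 4439 to 5147 CPM in treated 92-1 against 18760 to 22820 in DMSO, 2743 to 3114 against 7623 to 9765 in MEL202, and 5283 to 5679 against 11940 to 12480 in MP41. Both fibroblast markers tested in 92-1 rose as well, with sums of 13.0 to 15.8 CPM against 3.50 to 4.10 in DMSO, and the other 2 of the 4 had 3 reads or fewer in all 3 treated libraries. In MEL202 at 24 h 1 of 2 fibroblast markers tested rose (sums 4.95 to 6.70 against 1.24 to 3.02 CPM) and 1 of 2 leukocyte markers fell (1.40 to 2.55 against 2.21 to 2.31 CPM). In MP41 at 24 h 0 of 3 fibroblast markers were called, and the 1 endothelial marker tested fell (sums 0.36 to 0.53 against 0.61 to 1.73 CPM). The part of these shifts in the results below was not tested.

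**Figure D2:**
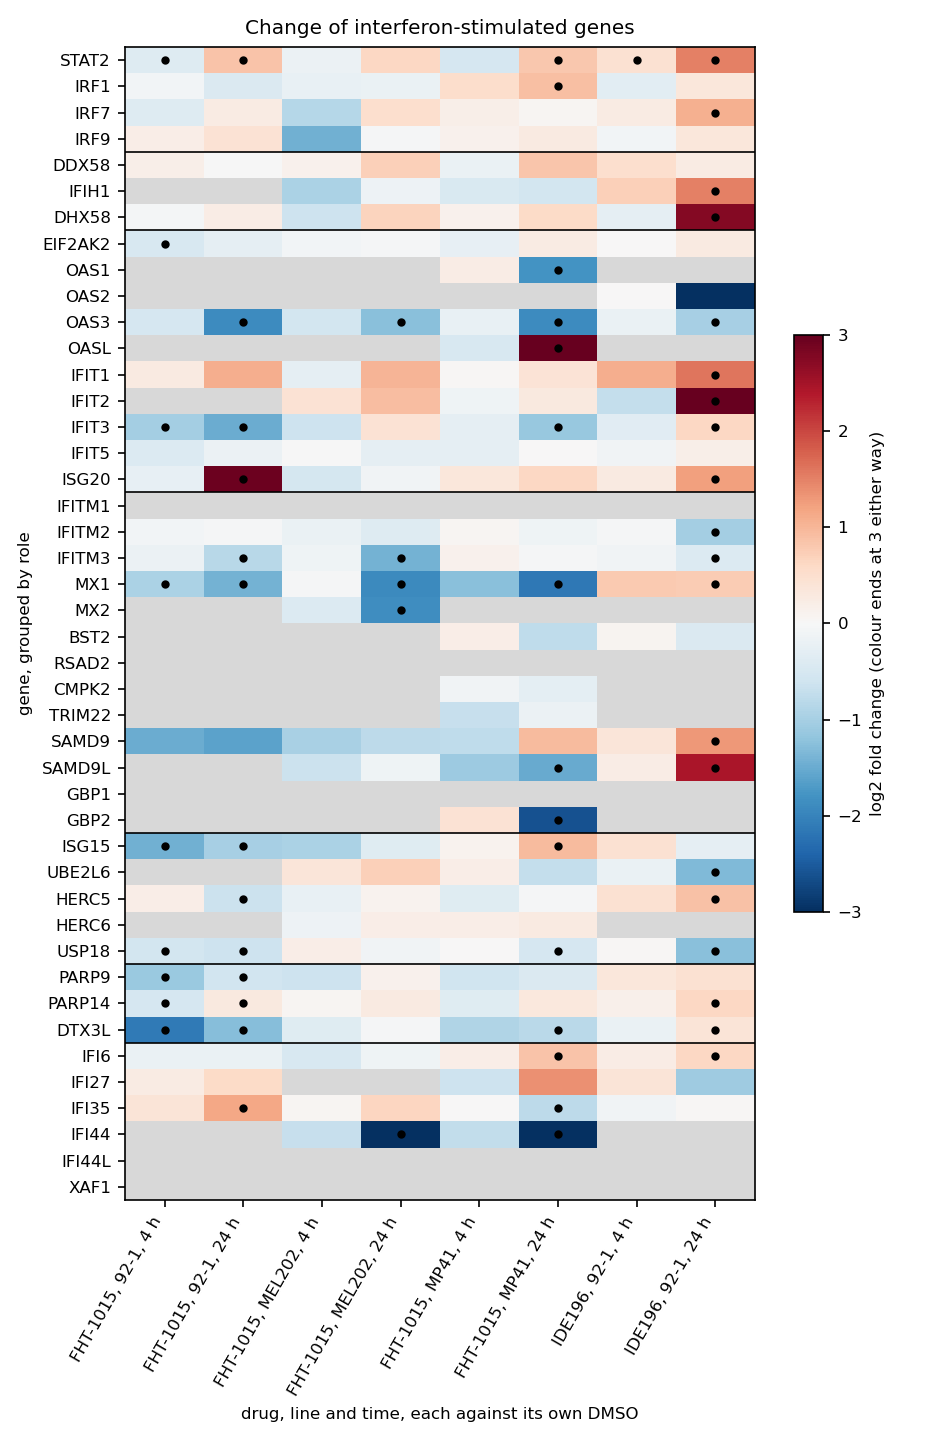
Log2 fold change of each gene (rows, grouped by role) for each drug, line and time against its own DMSO (columns), on a colour scale that ends at 3 in either direction. FHT-1015 at 24 h shows MX1 and OAS3 lower in all 3 lines, and IDE196 at 24 h shows 15 genes called higher and 5 lower.

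Of the 4 regulators, 1 fell at 4 h in 92-1, 1 rose there at 24 h, 2 rose in MP41 at 24 h and 0 changed in MEL202. Over all genes 16.7% fell in 92-1 at 4 h, 29.2% rose there at 24 h and 17.4% rose in MP41 at 24 h. In MEL202 0.679% of all genes were called at 4 h and 18.8% at 24 h. STAT2, a subunit of ISGF3, changed direction with time. Its gene lies at chr12:56341597-56360155 (minus strand, GRCh38). In 92-1 at 4 h it was at 32.4, 27.6 and 34.8 CPM in DMSO and at 20.6, 25.1 and 25.1 CPM with FHT-1015, so that every treated library lay below every DMSO library (as for 23.7% of all genes). It fell by 0.40 ± 0.12 (log2, SE; adjusted p = 0.0204). The call was lost in the fit of all 48 libraries and in 3 of the 12 fits that leave out a library: those without the DMSO library of replicate 1 (-0.38) or replicate 3 (-0.32) or the treated library of replicate 1 (-0.31) at 4 h.

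By 24 h the order was the reverse. STAT2 was at 34.9, 42.3 and 36.2 CPM in DMSO and at 66.0, 60.8 and 70.1 CPM with FHT-1015 in 92-1, and rose by 0.84 ± 0.12 (adjusted p = 1.43e-05). In MP41 it rose from 64.9, 64.5 and 52.9 CPM to 97.1, 96.1 and 102.2 CPM, by 0.80 ± 0.16 (adjusted p = 0.00146). The 3 treated MEL202 libraries, at 52.6, 49.8 and 51.3 CPM, also lay above DMSO at 32.4, 35.5 and 35.9 CPM (as for 24.6% of all genes), but the log2 difference of 0.62 ± 0.21 missed the threshold (adjusted p = 0.054). It passed under 5 alternatives (RLE size factors, DESeq2, limma-voom, the 6 libraries alone and all 48 together), with log2 values from 0.60 to 0.64. The change of the STAT2 effect from 4 h to 24 h was itself called in 92-1 (1.24 ± 0.17, adjusted p = 2.5e-05) and in MP41 (1.29 ± 0.22).

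By edgeR's test in each experiment the other 3 regulators gave 1 call with FHT-1015. IRF1, a factor that drives part of this programme on its own, was at 3.89, 4.34 and 1.72 CPM in MP41 DMSO at 24 h and at 5.47, 5.70 and 6.0 CPM with drug. It rose by 0.90 ± 0.30 (adjusted p = 0.0293), a call lost with the 6 libraries alone and in 5 of the 12 fits that leave out a library, with values from 0.52 (without the DMSO library of replicate 3) to 1.13. IRF7, the amplifier of interferon transcription, and IRF9, the DNA-binding part of ISGF3, were not called in any line with FHT-1015 by that test. Under other fits IRF7 was called lower in 92-1 at 4 h (-0.57, limma-voom, adjusted p = 0.0261) and in MEL202 at 4 h (-0.84, all 48 libraries, adjusted p = 0.04) and higher in MEL202 at 24 h (0.56, limma-voom, adjusted p = 0.0029). IRF1 was called lower in 92-1 at 24 h with summed stranded columns (-0.59, adjusted p = 0.0217). IRF9 stayed under 1 CPM in every library, and its annotation overlaps another gene on the same strand, so its counts are uncertain.

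The RNA sensors DDX58 (RIG-I) and DHX58 were not called by edgeR's test in any of the 6 FHT-1015 comparisons, nor was IFIH1 in the 4 of MEL202 and MP41. IFIH1 had too few reads to be tested in 92-1, where its mean was 0.43 CPM in DMSO and 0.099 CPM with drug at 4 h. Limma-voom called DDX58 higher in MEL202 and MP41 and DHX58 higher in MP41, all at 24 h, and IFIH1 lower in MP41 at 4 h (-0.71). DHX58 in MP41 was at 9.91, 10.6 and 10.6 CPM with drug at 24 h against 7.79, 9.85 and 4.8 CPM in DMSO, so every treated library lay above every DMSO library (as for 18.1% of all genes) without passing the test.

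Of the 10 genes that block translation or destroy RNA, 2 of 6 tested fell in 92-1 at 4 h, 2 fell and 1 rose at 24 h, 1 of 7 fell in MEL202 at 24 h, and 3 of 9 fell and 1 rose in MP41 at 24 h. Over all genes in these comparisons 16.7%, 31.4%, 10.1% and 18.7% were called lower and 12.9%, 29.2%, 8.69% and 17.4% higher. OAS3 (chr12:112938352-112973249, plus strand), whose ISRE core is printed above, fell in all 3 lines at 24 h. In MP41 it was at 23.3, 31.5 and 25.4 CPM in DMSO and at 7.84, 6.42 and 5.81 CPM with FHT-1015, and fell by 1.89 ± 0.18 (adjusted p = 4.9e-06). In 92-1 it went from 3.26, 2.85 and 2.27 CPM to 1.28, 0.596 and 0.341 CPM, and fell by 1.89 ± 0.37 (adjusted p = 0.000369).

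In MEL202 OAS3 went from 2.36, 3.21 and 3.48 CPM to 1.34, 1.17 and 1.11 CPM, and fell by 1.26 ± 0.37 (adjusted p = 0.0282). The MEL202 call was lost in 5 of 12 fits that leave out a library, those without 1 of the 3 treated libraries of 24 h or without the DMSO library of replicate 2 or 3 at 24 h (-1.42 to -1.17 over the 12). In none of the 3 lines did the treated and DMSO libraries overlap at 24 h. Every treated library lay below every DMSO library for 35.3% of all genes in 92-1, 26.6% in MEL202 and 24.2% in MP41. At 4 h OAS3 was not called in any line, and its effect was lower at 24 h than at 4 h in 92-1, where it fell by a further 1.38, and in MP41, where it fell by a further 1.67 ± 0.25 (log2). OAS1, its close relative, fell with it in MP41 at 24 h, from 3.08, 3.51 and 2.71 CPM to 0.826, 1.21 and 0.456 CPM (by 1.78 ± 0.33, adjusted p = 0.000935). The catalytically inactive relative OASL went the other way in MP41. It had 6, 1 and 4 reads in DMSO and 0.929, 1.74 and 2.28 CPM with drug, and rose by 3.31 ± 0.66 (adjusted p = 0.0017).

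IFIT3, which binds other IFIT proteins on viral RNA, fell in 92-1 and MP41 but not in MEL202. In 92-1 at 4 h it was at 13.6, 13.7 and 11 CPM in DMSO and 6.13, 6.91 and 5.47 CPM with FHT-1015, and at 24 h at 14.4, 10.6 and 11.8 against 4.58, 3.72 and 4.32 CPM. Every treated library lay below every DMSO library at both times, as for 23.7% of all genes at 4 h and 35.3% at 24 h. IFIT3 fell by 1.02 ± 0.15 (adjusted p = 7.43e-05) and by 1.49 ± 0.15 (adjusted p = 6.67e-07). In MP41 at 24 h it fell by 1.14 ± 0.18 (adjusted p = 0.00029), from 14.5, 13.0 and 17.6 CPM to 6.25, 5.74 and 7.18 CPM. In MEL202 the treated libraries, at 25.8, 30.6 and 28.6 CPM, lay above DMSO at 21.4, 20.5 and 22.8 CPM (as for 24.6% of all genes) without a call. The difference of the 24 h effect among lines was called for IFIT3 (adjusted p = 7.58e-07).

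With FHT-1015, ISG20 was called in 92-1 at 24 h, and its effect differed among lines at 24 h (adjusted p = 9.16e-05). In 92-1 at 24 h it went from 0.236, 0.121 and 0.306 CPM to 1.89, 1.42 and 1.76 CPM, a rise of 2.94 ± 0.44 (adjusted p = 3.34e-05). All 3 treated 92-1 libraries lay below the MP41 DMSO libraries, which at 24 h held 9.71, 15.2 and 8.53 CPM. EIF2AK2 in 92-1 at 4 h went from 83.4, 78.7 and 75.4 CPM to 66.3, 57.2 and 43.5 CPM and fell by 0.48 ± 0.13 (adjusted p = 0.0115), a call lost in the fit of all 48 libraries. By edgeR's test IFIT1 and IFIT5 were not called with FHT-1015 in any line, and IFIT2 was not called in MEL202 or MP41 and not tested in 92-1. At 24 h limma-voom called IFIT1 higher in 92-1 (2.09) and MEL202 (1.21), IFIT2 higher in MEL202 (0.92) and IFIT5 lower there (-0.33), and it called IFIT5 lower in 92-1 at 4 h (-0.44). The replicate block also called IFIT1 in 92-1 at 24 h (1.27) and IFIT5 there at 4 h (-0.40), and other single fits called IFIT1 in 92-1 (no filter, 1.07) and MEL202 (6 libraries, 1.02) at 24 h.

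The 13 genes that act on entry, replication and release gave falls and no rise with FHT-1015: 1 of 4 tested in 92-1 at 4 h and 2 at 24 h, 3 of 6 in MEL202 and 3 of 9 in MP41 at 24 h. Over all genes in these comparisons 16.7%, 31.4%, 10.1% and 18.7% were called lower and 12.9%, 29.2%, 8.69% and 17.4% higher. MX1, a GTPase that traps viral nucleocapsids, was the one called lower in all 3 lines. In 92-1 it was at 1.09, 0.971 and 1.59 CPM in DMSO and 0.404, 0.298 and 0.569 CPM with FHT-1015 and fell by 1.43 ± 0.37 (adjusted p = 0.00372). In MEL202 it went from 1.43, 1.24 and 1.61 CPM to 0.416, 0.312 and 0.371 CPM (fell by 1.90 ± 0.60, adjusted p = 0.0415). In MP41 it went from 1.15, 3.17 and 1.44 CPM to 0.568, 0 and 0.646 CPM (fell by 2.14 ± 0.75, adjusted p = 0.0382). These are low levels, and leaving out single libraries lost the call in 7 of 12 fits in MEL202 (-2.01 to -1.79) and 5 of 12 in MP41 (-2.72 to -1.53). The call was also lost with summed stranded columns in MEL202, with the 6 libraries alone or the replicate block in MP41, and in the fit of all 48 libraries in 92-1.

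IFITM3 fell at 24 h in 92-1, from 42.8, 43.7 and 40.0 CPM to 19.9, 23.2 and 25.1 CPM (by 0.84 ± 0.18, adjusted p = 0.000657), and in MEL202, from 23.6, 13.9 and 20.9 CPM to 6.75, 7.32 and 7.13 CPM (by 1.41 ± 0.28, adjusted p = 0.00339). In MP41, the line with the highest level, it was at 93.8, 116 and 139 CPM with drug against 126, 139 and 114 CPM and was not called. The line difference was called (adjusted p = 0.0098). MX2, which averaged over 1 CPM in DMSO in MEL202 alone, fell there at 24 h by 1.87 ± 0.47 (adjusted p = 0.0132), from 2.90, 2.75 and 3.26 CPM to 0.508, 1.17 and 0.648 CPM, a call lost without the treated library of replicate 1 (-1.65) or of replicate 3 (-1.75). SAMD9L fell in MP41 (by 1.52 ± 0.53, adjusted p = 0.0394) with overlapping groups, a call lost in 5 of 12 fits that leave out a library (-0.79 without the DMSO library of replicate 3 at 24 h), and GBP2, a guanylate-binding protein, had 2, 3 and 2 reads in treated MP41 (adjusted p = 0.00306).

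For ISG15 and its conjugation, 2 of 3 tested genes fell in 92-1 at 4 h and all 3 at 24 h, 0 of 5 changed in MEL202, and 1 fell and 1 rose of 5 in MP41 at 24 h. Over all genes 16.7% fell in 92-1 at 4 h and 31.4% at 24 h. In MEL202 0.679% were called at 4 h and 18.8% at 24 h, and in MP41 at 24 h 18.7% fell and 17.4% rose. ISG15, the ubiquitin-like modifier itself, fell in 92-1 and rose in MP41. In 92-1 at 4 h it was at 3.10, 5.09 and 4.50 CPM in DMSO and 0.972, 1.30 and 2.45 CPM with drug (fell by 1.45 ± 0.37, adjusted p = 0.00829), and at 24 h it fell by 0.98 ± 0.35 (adjusted p = 0.0242) with overlapping libraries, a call lost in 4 of 12 fits that leave out a library (-1.29 to -0.76 over the 12). In MP41 at 24 h it was at 10.2, 15.1 and 6.64 CPM in DMSO and 15.8, 22.6 and 18.6 CPM with drug, and rose by 0.95 ± 0.31 (adjusted p = 0.0304). The MP41 call was lost with the 6 libraries alone and in 5 of 12 fits that leave out a library (0.63, without the DMSO library of replicate 3, to 1.26), and the line difference was called with an adjusted p of 0.0403. USP18, which removes ISG15 from proteins and restrains the interferon receptor, fell in 92-1 by 0.54 ± 0.14 at 4 h and 0.61 ± 0.15 at 24 h, and in MP41 by 0.50 ± 0.18 at 24 h. The USP18 call in MP41 was lost in 9 of 12 fits that leave out a library (-0.32 without the DMSO library of replicate 2 at 24 h). It was also lost with the 6 libraries alone, without the low-count filter and with summed stranded columns. The 4 h call in 92-1 was lost without the treated library of replicate 2 (-0.44) and with all 48 libraries. HERC5, the main ligase for ISG15, fell in 92-1 at 24 h (by 0.65 ± 0.17, adjusted p = 0.00385).

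PARP9, DTX3L and PARP14 all fell in 92-1 at 4 h, where 16.7% of all genes were called lower. DTX3L had the largest fold change of the 9 members called there. DTX3L, a ubiquitin ligase that works as a complex with PARP9, lies at chr3:122564238-122575203 on the plus strand, and its annotation overlaps that of PARP9 on the opposite strand. Reads without strand cannot be told apart where they overlap and are counted for neither gene, which leaves the levels of both uncertain. DTX3L was at 9.02, 8.81 and 9.55 CPM in DMSO and at 2.28, 2.06 and 1.76 CPM with FHT-1015 at 4 h, and fell by 2.13 ± 0.16 (adjusted p = 1.04e-07). At 24 h it was at 9.07, 8.49 and 9.37 CPM against 3.57, 3.05 and 4.09 CPM and fell by 1.27 ± 0.15 (adjusted p = 3.37e-06).

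PARP9 fell by 1.11 ± 0.18 at 4 h (adjusted p = 0.00027) and by 0.58 ± 0.18 at 24 h. Its 24 h call was lost without the low-count filter and in the fit of all 48 libraries. PARP14, an ADP-ribosyltransferase, fell at 4 h by 0.51 ± 0.12 (adjusted p = 0.0043), a call lost in the fit of all 48 libraries. It was called higher at 24 h by 0.29 ± 0.12 (adjusted p = 0.0422). The 24 h call was lost in 8 of 12 fits that leave out a library (0.15, without the treated library of replicate 3, to 0.39), without the low-count filter, and in fits of 6 or of 48 libraries. DTX3L also fell in MP41 at 24 h, from 19.3, 18.2 and 22.5 CPM to 12.6, 9.93 and 9.38 CPM (by 0.81 ± 0.20, adjusted p = 0.00714). At 4 h in MP41 all 3 genes had every treated library below every DMSO library, as did 10.3% of all genes, without passing the test. In MEL202 DTX3L at 24 h was at 7.21, 9.19 and 9.64 CPM with drug and 8.98, 9.67 and 9.05 CPM without, and the lines differed in its effect at both 4 h (adjusted p = 0.0051) and 24 h (adjusted p = 0.0239).

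Of the remaining 6 induced genes, 1 of 3 tested rose in 92-1 at 24 h, 1 of 3 fell in MEL202, and 1 rose and 2 fell of 4 in MP41. Over all genes at 24 h 29.2% rose in 92-1, 10.1% fell in MEL202, and 17.4% rose and 18.7% fell in MP41. IFI35 was called in opposite directions. In 92-1 at 24 h it rose from 6.99, 7.70 and 5.94 CPM to 16, 13.2 and 15.2 CPM (by 1.15 ± 0.15, adjusted p = 1.04e-05). In MP41, which started far higher, it fell from 97.5, 146 and 82.8 CPM to 52.1, 67.0 and 56.2 CPM (by 0.79 ± 0.20, adjusted p = 0.00669). The effect differed among lines (adjusted p = 7.93e-06). IFI6, a mitochondrial and endoplasmic reticulum protein, rose in MP41 at 24 h from 25.1, 29.2 and 20.6 CPM to 36.6, 44.3 and 46.2 CPM (by 0.86 ± 0.18, adjusted p = 0.00234). IFI44 had 2, 3 and 1 reads in treated MEL202 at 24 h against 2.17, 0.731 and 1.71 CPM in DMSO (adjusted p = 0.00413). In MP41 at 24 h IFI44 was also called lower, with 0, 2 and 0 reads against 6, 1 and 12 in DMSO (adjusted p = 0.0348), a call lost in 4 of 12 fits that leave out a library, among them that without the DMSO library of replicate 3 at 24 h (adjusted p = 0.105), and with the replicate block.

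**Figure D3:**
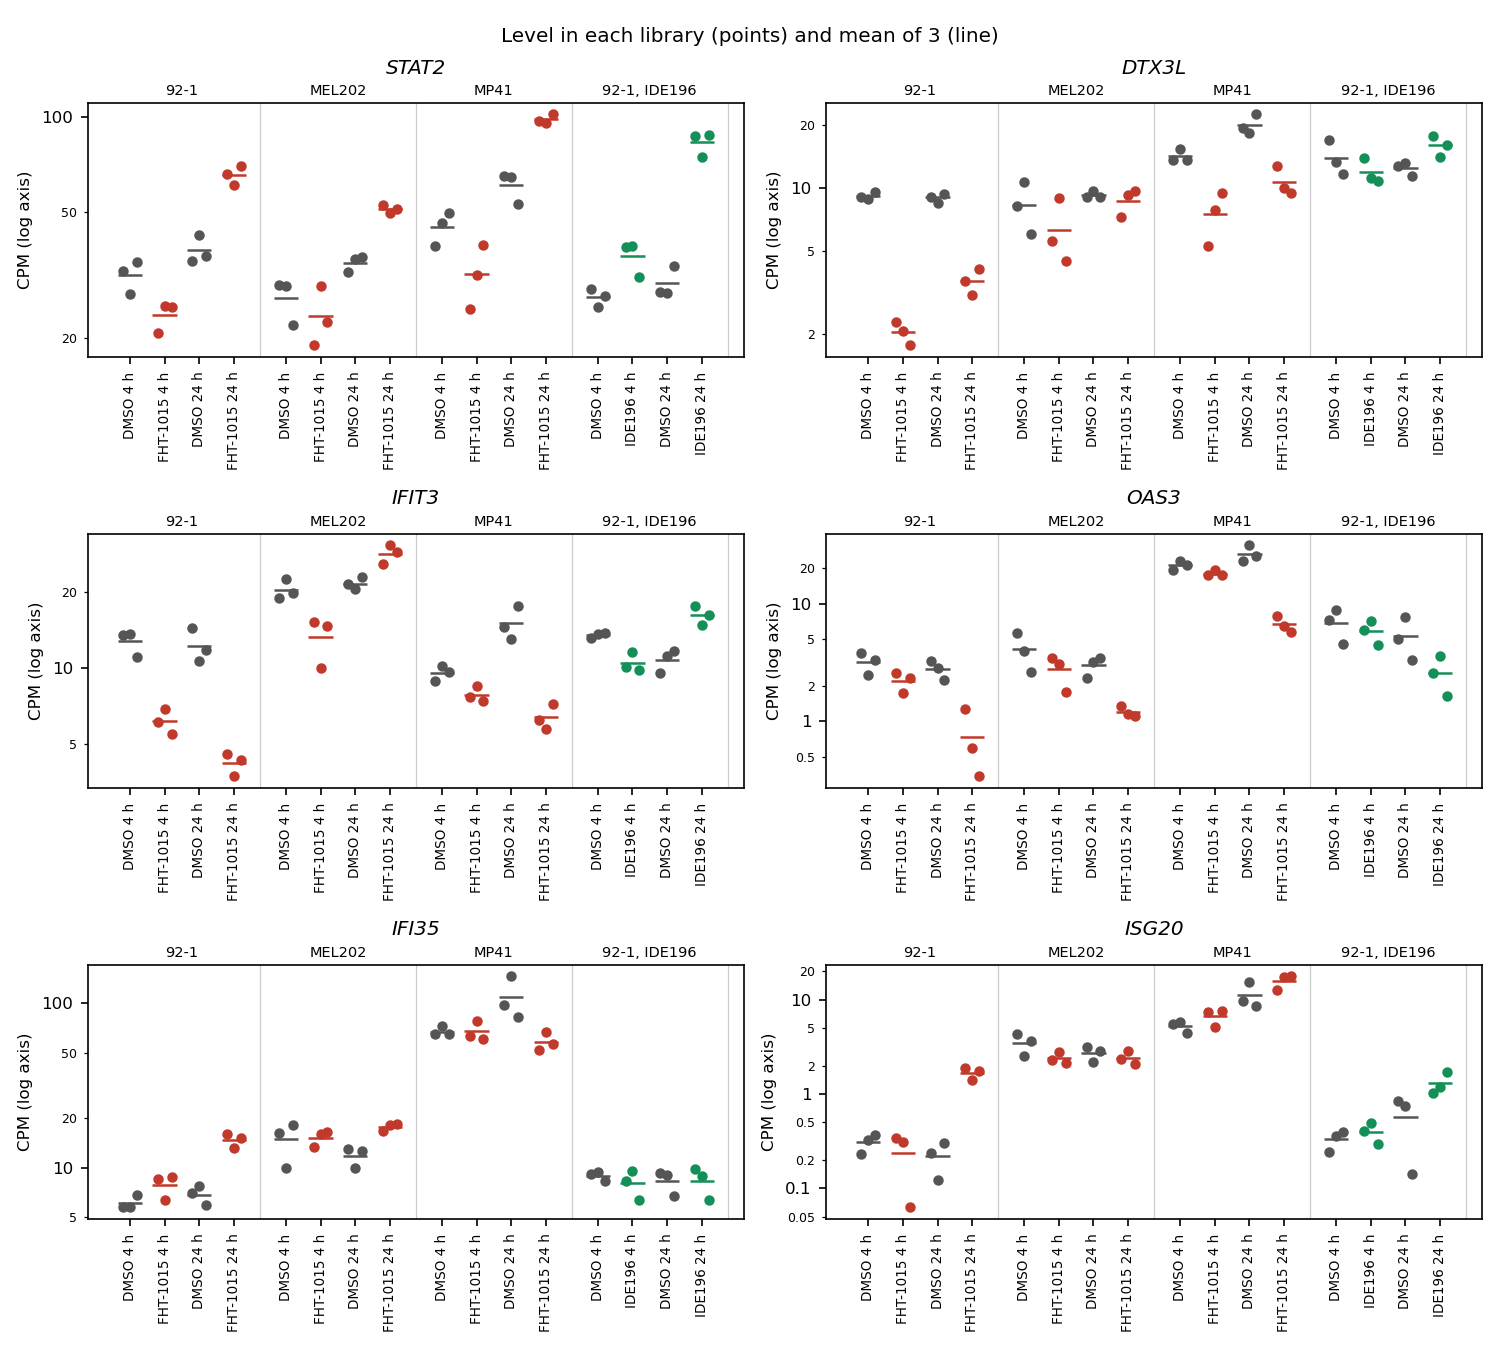
Level in each library (points) and the mean of 3 (line), in CPM on a log axis, for members whose values are given in the text, by line, drug and time. STAT2 with FHT-1015 lies below DMSO at 4 h and above it at 24 h in 92-1, and OAS3 is lower with FHT-1015 at 24 h in all 3 lines.

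Calls were compared across lines, which share no libraries. Of the 24 members tested in all 3 lines at 24 h, 2 were lower in all 3 (MX1 and OAS3) and 0 higher in all 3, as were 7.65% and 5.04% of all 13677 genes tested in each. Leaving out a library lost the MEL202 call in 7 (MX1) and 5 (OAS3) of 12 fits, with log2 values of -2.01 to -1.79 and -1.42 to -1.17 over the 12. The MX1 call in MP41 was lost in 5 of 12. The MX1 call in 92-1 and the OAS3 calls in 92-1 and MP41 were lost in 0 of 12. In at least 1 line 10 were lower and 7 higher (38.0% and 35.6% of all genes). Between 92-1 and MP41, 5 genes fell in both (DTX3L, IFIT3, MX1, OAS3 and USP18, of 9 and 10 called lower), STAT2 rose in both, and IFI35 and ISG15 went in opposite directions, out of 25 tested in both. Over all genes tested in both, 14.9% fell in both, 12.2% rose in both and 1.51% went in opposite directions. Leaving out a library lost the MP41 call in 9 of 12 fits for USP18 and 5 for ISG15, and the 92-1 call for ISG15 in 4. The calls of DTX3L, IFIT3, STAT2 and IFI35 were lost in 0 of 12 in either line. The test of the difference among lines called 7 of 38 genes at 24 h (12% of all genes) and 1 of 38 at 4 h (1.38%). UBE2L6 completes the 7 with an adjusted p of 0.0371.

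The FHT-1015 effect itself was also compared between times, as 24 h minus 4 h: 8 members were called in 92-1 (45.5% of all genes, 21.1% higher and 24.3% lower), 2 in MEL202 (6.89%, 3.00% higher and 3.90% lower) and 6 in MP41 (18.6%, 7.73% higher and 10.9% lower). In 92-1 the later effect was lower for OAS3, HERC5 and IFITM3 and higher for STAT2, ISG20, DTX3L, PARP14 and IFI35. Both times in 92-1 shared 6 falls (9.44% of all genes), of DTX3L, IFIT3, ISG15, MX1, PARP9 and USP18. The MX1 call at 4 h was lost in 5 of 12 fits that leave out a library. It was also lost with DESeq2, without the low-count filter, with summed stranded columns and in the fit of all 48 libraries. The 2 in MEL202 were IFIT3 (higher by 1.06 ± 0.28, adjusted p = 0.037) and IRF7 (1.35 ± 0.36, adjusted p = 0.038), but the MEL202 count was 0 in 8 of the 12 fits that leave out a library, 0 with the replicate block, and 5 without the FHT-1015 library of replicate 2 at 4 h. The MP41 count ran from 4 to 13, the 13 without the replicate 3 DMSO library at 24 h.

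With IDE196 in 92-1 more members rose than fell at 24 h. At 4 h 1 of 31 tested genes rose, STAT2, and 0 fell, where 16.2% of all genes were called, 6.89% higher and 9.30% lower. STAT2 was at 28.5, 25.1 and 27.0 CPM in DMSO and 38.8, 39.0 and 31.0 CPM with IDE196 (higher by 0.46 ± 0.12, adjusted p = 0.0099), a call lost without the treated library of replicate 2 (0.40) and in the fit of all 48 libraries. At 24 h 15 rose and 5 fell (58.1% of all genes called, 28.7% higher and 29.4% lower), with a median log2 fold change of 0.40 over tested members against 0.03 over all genes. Of the melanocyte markers, 2 of 7 tested rose and 1 fell at 24 h, and their sum was 18320 to 20850 CPM with IDE196 against 17650 to 20530 in DMSO. Of the fibroblast markers, 1 of 3 tested rose at 24 h, with sums of 13.1 to 19.9 CPM against 7.98 to 11.5 in DMSO, and the part of this in the rises below was not tested.

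By role the genes that rose at 24 h (28.7% of all genes) were 2 of 4 regulators, 2 of 3 sensors, 4 of 8 genes acting on RNA and translation, 3 of 6 on entry, replication and release, 1 of 4 for ISG15, 2 of 3 of the PARP group and 1 of 3 others. The 5 that fell were 1 on RNA and translation, 2 on entry, replication and release and 2 for ISG15. The effect of 8 members differed between 24 h and 4 h (30.7% of all genes, 13.5% higher and 17.2% lower): DHX58, IFIT2, STAT2, IFIT3, IRF7 and DTX3L were higher, USP18 and IFITM2 lower. STAT2 went from 27.9, 27.6 and 33.7 CPM to 87.1, 74.8 and 87.9 CPM at 24 h and rose by 1.52 ± 0.11 (adjusted p = 5.82e-09). IRF7 went from 7.98, 6.27 and 9.37 CPM to 15.7, 15.5 and 16.9 CPM (1.06 ± 0.16, adjusted p = 1.92e-05). The sensor IFIH1 rose by 1.52 ± 0.31 (adjusted p = 0.000398), from 1.08, 0.691 and 0.666 CPM to 2.42, 1.93 and 2.53 CPM, and DHX58 by 2.75 ± 0.57 (adjusted p = 0.000451), from 0.295, 0.159 and 0.190 CPM to 1.91, 1.15 and 1.29 CPM.

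Of the genes that act on RNA and translation, IFIT1, IFIT3, ISG20 and IFIT2 rose and OAS3 fell. The ISG20 call was lost in 8 of 12 fits that leave out a library (0.75 to 1.60 over the 12) and without the low-count filter. IFIT3 went from 9.51, 11.2 and 11.7 CPM to 17.6, 14.7 and 16.2 CPM (0.62 ± 0.12, adjusted p = 0.000327) and IFIT1 from 0.394, 0.585 and 0.571 CPM to 1.72, 1.10 and 1.82 CPM (1.61 ± 0.43, adjusted p = 0.00411). IFIT2 had 0, 3 and 1 reads in DMSO and 0.977, 0.731 and 0.177 CPM with IDE196 (adjusted p = 0.00668). OAS3 fell by 0.99 ± 0.33 (adjusted p = 0.0152), a call lost without the DMSO library of replicate 5 (-0.65) or the treated library of replicate 3 (-0.77).

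Among restriction factors SAMD9 rose from 3.35, 1.81 and 1.62 CPM to 5.82, 5.33 and 5.30 CPM (1.31 ± 0.28, adjusted p = 0.000645, a call lost in the fit of all 48 libraries), SAMD9L by 2.45 ± 0.60 and MX1 by 0.76 ± 0.29 (adjusted p = 0.0323). The MX1 call was lost in 4 of 12 fits that leave out a library and with all 48 libraries. IFITM2 fell by 1.02 ± 0.18 (adjusted p = 0.000103), from 62.6, 65.0 and 73.3 CPM to 40.4, 32.2 and 23.8 CPM, and IFITM3 by 0.41 ± 0.17 (adjusted p = 0.048), a call lost in 6 of 12 such fits (-0.52 to -0.26 over the 12), with summed stranded columns and with all 48 libraries. Reads in the part shared by IFITM2 and IFITM1 annotations leave these levels uncertain. For ISG15 conjugation, HERC5 rose by 0.87 ± 0.17 (adjusted p = 0.00021), while USP18, the enzyme that reverses it, went from 11.5, 11.1 and 11.4 CPM to 5.26, 4.34 and 4.24 CPM and fell by 1.26 ± 0.14 (adjusted p = 5.84e-07). UBE2L6 fell by 1.31 ± 0.54 (adjusted p = 0.0446) with overlapping libraries, a call lost in 8 of 12 such fits. DTX3L (0.40 ± 0.15, adjusted p = 0.031) and PARP14 (0.62 ± 0.13, adjusted p = 0.000614) rose, as did IFI6 by 0.62, and the DTX3L call was lost in 4 of 12 such fits and with all 48 libraries.

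Drug effects were set against each other in 92-1, each against its own DMSO set. IDE196 minus FHT-1015 was called higher for 11 of 31 genes at 4 h and lower for 0 (24.6% of all genes called, 14% higher and 10.7% lower), and higher for 13 and lower for 4 at 24 h (33.0%, 17.1% higher and 15.9% lower). At 4 h the gap was 1.94 ± 0.22 for DTX3L (adjusted p = 1.6e-07), 1.90 for ISG15, 1.44 for PARP9 and 0.86 ± 0.17 for STAT2 (adjusted p = 0.00039). At 24 h it was 2.11 ± 0.19 for IFIT3 (adjusted p = 1.3e-09), 1.67 ± 0.21 for DTX3L (adjusted p = 5.1e-07), 2.18 ± 0.46 for MX1, 1.53 ± 0.24 for HERC5 and 0.67 ± 0.17 for STAT2. The genes lower with IDE196 than with FHT-1015 were UBE2L6, IFI35 (-1.11 ± 0.24, adjusted p = 0.0008), IFITM2 and USP18.

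Both drugs at 24 h raised STAT2, ISG20 and PARP14 and lowered OAS3, USP18 and IFITM3, while DTX3L, HERC5, IFIT3 and MX1 fell with FHT-1015 and rose with IDE196. Of the 25 members tested with both, these are 3, 3 and 4, where 15.7% of all genes rose with both, 20.1% fell with both and 7.10% went in opposite directions. Leaving out a library lost the PARP14 call with FHT-1015 and the ISG20 call with IDE196 in 8 of 12 fits each. With IDE196 it also lost IFITM3 in 6, DTX3L and MX1 in 4 each and OAS3 in 2. The other calls named here were lost in 0 of 12. The DMSO sets of the experiments differ, as given above, and experiment and drug cannot be told apart in a difference between levels, and each effect was therefore taken against its own set.

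**Figure D4:**
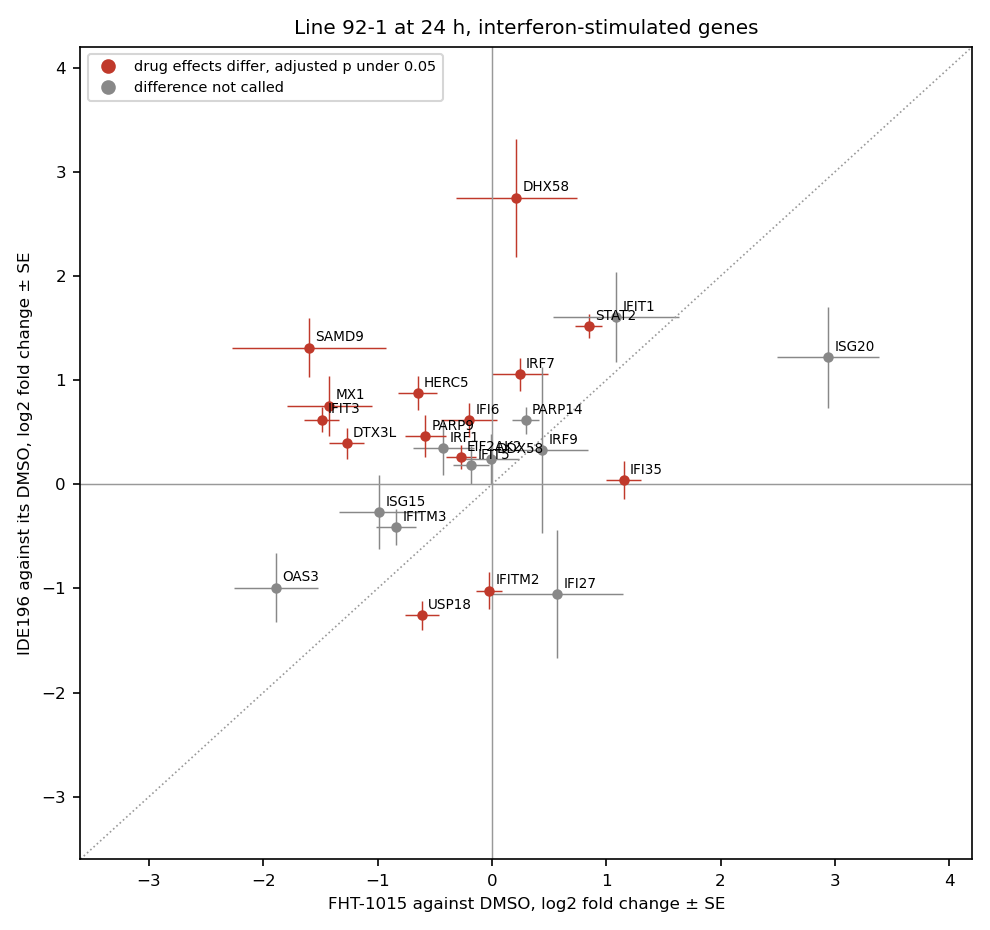
FHT-1015 effect (horizontal) against IDE196 effect (vertical) in 92-1 at 24 h, log2 fold change with SE, for the 25 genes tested in both. The 14 genes whose effects were called different are coloured; STAT2 lies high on both axes, and IFIT3, MX1 and HERC5 lie to the left of 0 and above it.

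Other genes of the pathway, 40 in all and chosen for their role, were tested alongside. In 92-1 with FHT-1015, 24 were tested, of which 4 rose and 12 fell at 4 h (29.5% of all genes called) and 4 rose and 8 fell at 24 h (60.6%). In MEL202, 2 rose and 4 fell of 25 tested at 24 h (18.8%) and 0 changed at 4 h (0 of 25), and in MP41 4 rose and 4 fell of 25 at 24 h (36.1%), with 0 changed at 4 h. With IDE196, 1 rose and 1 fell at 4 h (16.2%) and 8 rose and 5 fell at 24 h (58.1%), of 24 tested.

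STING1, an adaptor for cytosolic DNA sensing, fell in 92-1 at 24 h with FHT-1015 by 2.77 ± 0.10 (adjusted p = 7.46e-12), in MEL202 by 1.58 ± 0.19, in MP41 by 0.62 ± 0.15, and in 92-1 with IDE196 by 1.03 ± 0.12. NLRC5, the activator of MHC class I genes, fell in all 3 lines at 24 h with FHT-1015, by 3.08, 2.15 and 2.11 in 92-1, MEL202 and MP41.

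IRF4, a factor of the IRF family that is part of the melanocyte programme, fell with FHT-1015 in 92-1 and MEL202 at 24 h, was not called in MP41 (0.33 ± 0.17, adjusted p = 0.144), where DMSO held 103.2 CPM against 1.38 in 92-1 and 4.93 in MEL202, and rose with IDE196 in 92-1 at 24 h, by 4.84 ± 0.33 (adjusted p = 1.70e-09). At 4 h with IDE196 it rose by 1.35 ± 0.35 (adjusted p = 0.0127), a call lost without the DMSO library of replicate 6 (0.98) and in fits of 6 or of 48 libraries. JAK2, a kinase of cytokine receptors, rose at 24 h with FHT-1015 in MEL202 by 1.04 ± 0.34 (adjusted p = 0.0452) and in MP41 by 1.02 ± 0.24. The MEL202 call was lost in 7 of 12 fits that leave out a library (0.89 to 1.14 in these) and with the replicate block (1.05). USP25, a deubiquitinase, rose in 92-1 at 4 h by 0.65 ± 0.09 and in MP41 at 24 h by 1.54 ± 0.26 (adjusted p = 0.000509), and the phosphatase PTPN2 rose in 92-1 at 4 h by 0.53 ± 0.10. TLR3, an endosomal sensor of double-stranded RNA, fell in MEL202 at 24 h with FHT-1015 by 2.59 ± 0.68, a call lost without the treated library of replicate 1 (-2.62) or replicate 3 (-2.09), and rose with IDE196 in 92-1 at 24 h by 1.63 ± 0.41 (adjusted p = 0.00261). The phosphatase PTPN1 fell with IDE196 by 0.36 ± 0.08 at 4 h and 0.56 ± 0.08 at 24 h.

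The feedback inhibitors SOCS1 and SOCS3 fell in 92-1 at 4 h with FHT-1015, by 1.63 and 2.57, and rose at 24 h, by 1.35 and 0.92. The SOCS1 call at 4 h was lost in 3 of 12 fits that leave out a library, with values of -2.46 to -1.25. SOCS1 also rose in MEL202 at 24 h, by 1.68 ± 0.44 (adjusted p = 0.016), a call lost in 4 of 12 such fits (1.51 to 1.89 over the 12).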

How the data were processed

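Gene-level read counts, unnormalised, were deposited for each library as an unstranded and 2 stranded columns, per the file headers and layout; the authors named the hg38 build and limma, per the submitters' processing notes, and the aligner and annotation are not given in the sources used here. Gene identifiers were paired with symbols through GENCODE 29, which had 58552 of 58870, and 92 spike-in identifiers held 0 reads. The unstranded column was used, since 49.73% to 50.11% of stranded reads lay on the first strand, and 9.35% to 11.8% of reads could not be given to 1 gene.

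Each experiment (12 libraries: 1 line, DMSO and a drug, 4 h and 24 h) was tested alone with edgeR 4.0.16 (R 4.3.3): filterByExpr, TMM normalisation and the quasi-likelihood test, with p-values adjusted (Benjamini-Hochberg) over all genes tested and a call at an adjusted p under 0.05. Standard errors were computed from each fold change and its F statistic. Joint fits of the 36 FHT-1015 libraries and of the 24 libraries of 92-1 tested differences between lines and between drugs. Printed CPM values use TMM factors over all 48 libraries. The scripts were tested on simulated data.

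The members, role groups and other lists were chosen with earlier results of these data known. The rule for named genes took STAT2, IRF1, IRF7 and IRF9 everywhere, the called members (3 each way) and other pathway genes (2 each way) with the largest changes in each drug comparison among genes averaging at least 1 CPM, the 3 highest members in DMSO per line and the 3 with the smallest p between lines. A further pathway gene is not reported here. All other members that are named were added after their values were seen. Alternatives were RLE (DESeq2-style) size factors, no filter on low counts, DESeq2 1.42.0, limma-voom 3.58.1 with quality weights, summed stranded columns, fits of fewer or more libraries, each library left out, and the replicate number as a block. The labels give no shared source for a replicate number, and 7 of 18 same-numbered pairs of DMSO and FHT-1015 libraries deviated together with a correlation above 0.1 (range -0.322 to 0.508), so the libraries were treated as unpaired.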

Additional observations from a re-analysis of the deposited data

Results flagged for a closer look

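A test of the difference itself picked out the results here, and their causes were not tested. The 24 h FHT-1015 effect differed among the 3 lines for IFIT3 (adjusted p = 7.58e-07, edgeR's quasi-likelihood test), which fell in 92-1 and MP41 and not in MEL202. It differed for IFI35 (adjusted p = 7.93e-06), called higher in 92-1 and lower in MP41, for ISG20 (adjusted p = 9.16e-05), called in 92-1, and for IFITM3 (adjusted p = 0.0098), called lower in 92-1 and MEL202. DTX3L (adjusted p = 0.0239), UBE2L6 (adjusted p = 0.0371) and ISG15 (adjusted p = 0.0403) also differed at 24 h, and DTX3L differed at 4 h (adjusted p = 0.0051).

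Effects at 24 h and 4 h differed for 8 of 25 members with FHT-1015 in 92-1 (45.5% of all genes), for 2 of 31 in MEL202 (6.89%), for 6 of 37 in MP41 (18.6%) and for 8 of 31 with IDE196 in 92-1 (30.7%), so these counts do not stand above those of all genes. Effects of FHT-1015 and IDE196 in 92-1 differed for 11 of 31 members at 4 h (24.6% of all genes) and 17 at 24 h (33.0%), each drug against its own DMSO set.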

How the results depend on the processing

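Members called are counted throughout. Alternatives for the comparisons over time and between the 92-1 DMSO sets were chosen after seeing the data. With all 48 libraries in 1 fit, the FHT-1015 count was 4 in 92-1 at 4 h, 2 in MEL202 at 4 h, 9 in MEL202 at 24 h and 1 in MP41 at 4 h, the IDE196 count at 4 h was 0, the change of effect with time was called for 5 in 92-1 and 5 in MEL202, and DMSO time for 4 in MP41. With limma-voom, 15 were called in MEL202 at 24 h, 4 in MP41 at 4 h, 23 in MP41 at 24 h and 2 with IDE196 at 4 h, the change of effect for 5 in MEL202 and 13 in MP41, and DMSO time for 22 in MP41. DESeq2 called 1 in MP41 at 4 h, 4 for the change of effect in MEL202 and 3 for DMSO time in MP41. Without a filter these were 1, 1 and 4. With only the 6 libraries compared, 10 were called in MEL202 at 24 h, 1 in MP41 at 4 h and 9 in MP41 at 24 h, and with summed stranded columns 0 for DMSO time in MP41. The cause was not tested.

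With the replicate number as a block the change of effect in MEL202 was called for 0; the FHT-1015 counts at 4 h and 24 h were 11 and 16 in 92-1, 0 and 5 in MEL202 and 0 and 14 in MP41. Of the 18 DMSO libraries, 11 (all 6 of MP41) correlated best with the treated library of their own number, which hints at pairing but is not given by the labels. The IDE196 arms share no numbers with their DMSO set.

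Leaving out each library in turn gave 7 to 11 (92-1, 4 h), 11 to 15 (92-1, 24 h), 2 to 6 (MEL202, 24 h), 0 to 1 (MP41, 4 h), 10 to 16 (MP41, 24 h), and 0 to 2 and 16 to 22 for IDE196 at 4 h and 24 h. It gave 0 to 5 and 4 to 13 for the change of effect in MEL202 and MP41, 0 to 15 for DMSO time in MP41, 4 to 8 for lines at 24 h and 7 to 11 for drugs at 4 h.

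Of the values of single genes, 560 of 593 kept direction and side under the other alternatives and 969 of 1044 when a library was left out. Those that reversed were not called. They were IRF1 in MEL202 at 4 h (0.02985, limma-voom) and 24 h (0.1044, stranded columns), IRF9 in MEL202 at 24 h (0.01679 with DESeq2, 0.01127 with limma-voom, 0.192 with the block), IRF7 in MP41 at 24 h (-0.006941 with 6 libraries, -0.01379 with 48) and IRF9 with IDE196 at 4 h (1.206, limma-voom). Leave-one-out ranges that crossed 0 were -0.321 to 0.0287 and -0.1311 to 0.5139 for IRF1 and IRF9 in 92-1 at 4 h, -0.43 to 0.1026 for IRF1 in MEL202 at 4 h and -0.5457 to 0.4735 for IRF9 at 24 h. In MP41 they were -0.1265 to 0.3421 for IRF9 at 4 h, and -0.2635 to 0.4539 for IRF7 and -0.05485 to 0.5023 for IRF9 at 24 h. With IDE196, IRF9 ranged from -0.6695 to 1.11 at 4 h and from -0.1607 to 0.7641 at 24 h.

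Depth limits the low genes, whose values rest on few reads, and intervals cover the spread between these libraries only.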

Other observations

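OAS2, chosen after its values were seen, was uneven among the 92-1 libraries of the IDE196 experiment. In DMSO it was at 0.196, 0.856 and 0.0994 CPM at 4 h and at 0.0985, 0.957 and 0.190 CPM at 24 h for replicates 4, 5 and 6, and with IDE196 at 4 h it was at 0.226, 0.878 and 0.0585 CPM. At 24 h with IDE196 it was at 0, 0 and 0.118 CPM. In the first 92-1 DMSO set it had at most 1 read in a library.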
